A study of Mus musculus with 3 samples.

Results

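Exosomal microRNAs (miRNAs) of mesenchymal stem cells (MSCs) kept in hypoxia with the compound GW4869 (H+G-Exo) were compared with those of MSCs kept in normoxia (N-Exo). The comparison used 2 of the 3 arrays of the series, chosen by the treatment in the labels, 1 array for each side. The third array, of exosomes from hypoxia alone (H-Exo), is given beside them as a further value. All groups were exosomes collected over 24 h from MSCs of wild-type male C57BL/6 mice aged 4 to 6 weeks. The MSCs were the adherent cells of femur and tibia marrow and were used at passages 3 to 6. H+G-Exo differed from N-Exo in both the oxygen supply and the compound, so the part of each cannot be told apart in this comparison. The labels give neither the oxygen level nor the dose of GW4869. The medium of 10 dishes made each preparation. The cells were grown with fetal bovine serum, and whether it was present during the collection is not stated in the labels. The design text counts 3 samples per kind of exosome, and the labels do not say whether their RNA was pooled on the 1 array. A lower signal can come from fewer vesicles, from less of a miRNA in each vesicle or from another mix of vesicles, and these cannot be told apart.

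Exosomes are small vesicles that bud into late endosomes and leave the cell when those endosomes fuse with its surface membrane. Neutral sphingomyelinase makes ceramide, a lipid that helps these vesicles to bud, and GW4869 inhibits that enzyme. A miRNA is a short RNA cut from a hairpin precursor, whose 2 strands are named the 5p and the 3p arm. It recognises its target messenger RNAs mainly through its seed, bases 2 to 8 from the 5′ end, so miRNAs with 1 seed form a family. MSC exosomes are studied as carriers of such RNAs to injured tissue.

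The miRNAs on which the comparison turned fell into a lower and a higher set, and their mature sequences are shown to let the shared seeds and the base composition be read beside the values. The sequences are RefSeq's, with build GRCm38.p6, written 5′ to 3′ with the seed in capitals. The first 8 fell in H+G-Exo and stand for the let-7 and miR-15/16 families and for other miRNAs of stromal cells. Their share of G and C, the GC content, was 31.8% to 40.9%, under the median of 50% over the 140 falls with a sequence. They therefore do not show the range of base composition among the falls, and miR-503-5p, for example, fell at 56.5% GC.
let-7a-5p: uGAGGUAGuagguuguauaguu
let-7f-5p: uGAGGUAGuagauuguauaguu
miR-15a-5p: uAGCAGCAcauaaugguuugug
miR-322-5p: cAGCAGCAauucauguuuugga
miR-26a-5p: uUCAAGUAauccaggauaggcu
miR-29b-3p: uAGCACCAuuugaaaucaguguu
miR-21a-5p: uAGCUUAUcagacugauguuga
miR-199a-3p: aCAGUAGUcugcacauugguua
The next 6 rose in H+G-Exo.
miR-2137: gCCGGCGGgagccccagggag
miR-423-3p: aGCUCGGUcugaggccccucagu
miR-494-3p: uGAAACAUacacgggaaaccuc
miR-3473a: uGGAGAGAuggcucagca
miR-3473b: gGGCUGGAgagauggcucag
miR-3077-5p: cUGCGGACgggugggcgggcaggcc
The last, a textbook target of hypoxia-inducible factor, was called in neither direction.
miR-210-3p: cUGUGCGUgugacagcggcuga

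Of these, let-7a-5p lies on the minus strand at chr13:48538239-48538260 and miR-322-5p on the minus strand at chrX:53054306-53054327, within the span of the long noncoding RNA gene C430049B03Rik. miR-21a-5p lies on the minus strand at chr11:86584120-86584141, within the span of Vmp1. The higher miR-2137 lies on the plus strand at chrX:72992113-72992133, within the span of Zfp185, and miR-423-3p on the minus strand at chr11:77078086-77078108, within the span of Nsrp1. miR-494-3p lies on the plus strand at chr12:109715367-109715388, in the imprinted Dlk1-Dio3 region. miR-210-3p lies on the minus strand at chr7:141221407-141221428. Of the 1881 miRNAs on the array, 1608 matched a RefSeq mature sequence by name.

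All values are fluorescence signals of the brightest probe of a miRNA, averaged over its replicate spots. Scaling divided them by the array's own 75th percentile, taken among probes that all 3 arrays detected. The figure after ± is the SD over spots, a technical error within 1 array. With 1 array a side no test was possible and no difference has a replicate check. A miRNA is said to have risen or fallen where both arrays detected it and its scaled signals were 2-fold or more apart, and apart by more than 2 standard errors over spots. Detection needed the scanner software's flag for a signal well above background in over 50% of the spots. Levels of different probes are not comparable, so only the arrays are compared.

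The compared arrays were of like brightness, and the H-Exo array was dimmer, so the place of H-Exo among the arrays can depend on the scaling. The summed unscaled signal over all miRNAs was 925157 in N-Exo, 926615 in H+G-Exo and 555505 in H-Exo, and the percentiles used for scaling were 417.3, 468.9 and 235.0. In N-Exo 685 miRNAs were detected, beside 678 in H+G-Exo and 584 in H-Exo. Between spots of 1 probe, the median coefficient of variation was 12.7% to 13.1%. Labelling spike-ins, RNAs added before labelling, read 2316 and 1744 in N-Exo and 1995 and 1627 in H+G-Exo. Both were thus slightly lower in H+G-Exo. Those added for hybridization read 19953 and 2084 in N-Exo and 22014 and 2242 in H+G-Exo, slightly higher.

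The compared arrays both measured 606 miRNAs. In H+G-Exo 118 of them (19.5%) rose, 162 (26.7%) fell and 326 did neither. These percentages are the background against which the counts of each family are read. Each such count covers the members of a list, and other arms and neighbours can lie outside it. Of the falls 132 were miRNAs numbered below 3000, that is, named early, among them let-7, miR-15/16, miR-23/27, miR-26, miR-29, miR-30 and miR-199 members, and the largest was 13.0-fold. Of the rises 78 were miRNAs numbered 3000 or above, and the largest was 8.19-fold. Without any scaling, 141 (23.3%) rose and 141 (23.3%) fell. All 118 scaled rises were also unscaled rises, and 141 of the 162 scaled falls were also unscaled falls. Scaling divides each array by 1 number, so leaving it out shifts the log2 differences alike, here up by 0.17. That the scaled rises stay rises follows from this and is no separate check. The median difference over all measured miRNAs, H+G-Exo minus N-Exo, was -0.10 on the log2 scale when scaled and 0.07 when unscaled. Rises made up 42.1% of all calls, and this split moved with the scaling: 57.2% with each array's median, 55.8% with the labelling spike-ins, 55.2% in the deposited value table and 52.3% with the software's probe totals summed. No called miRNA changed direction under the 7 other scalings. All of these but quantile normalization divide each array by 1 number. They moved the median log2 difference by at most 0.31, so they could not turn a 2-fold call. Quantile normalization put 1 called miRNA, miR-1224-5p, at a difference of 0. That method gives equal values to equal ranks, and miR-1224-5p held the same rank on both arrays. Among the 310 measured miRNAs numbered 3000 or above, the 78 rises stood beside 30 falls, and the median log2 difference was 0.25. Among the 296 numbered below 3000, the 132 falls stood beside 40 rises, and the median was -0.71.

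**Figure D1:**
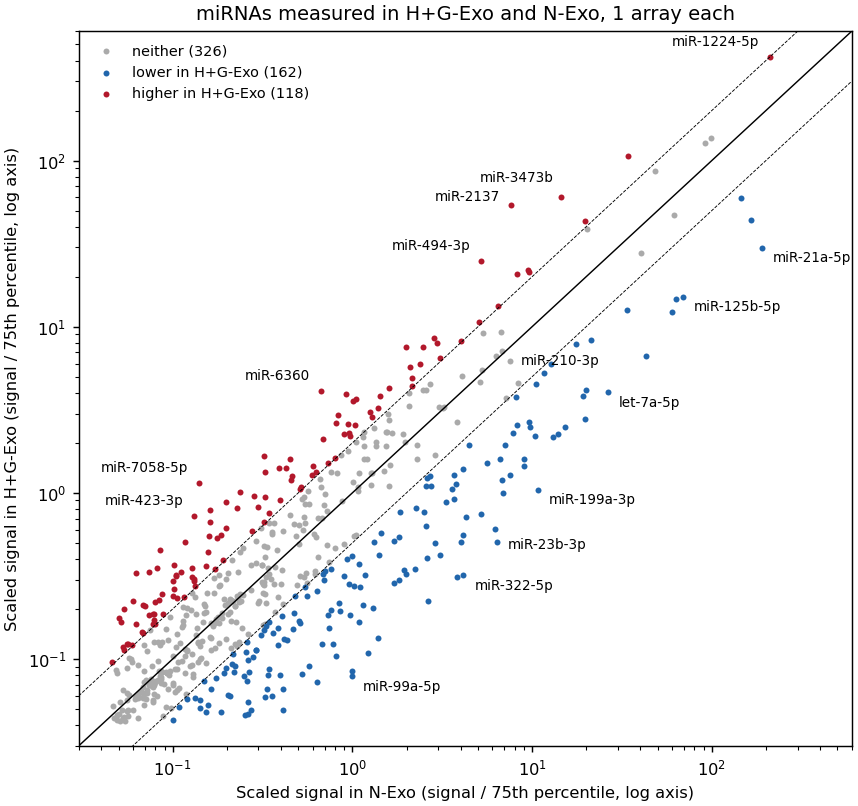
Scaled signal of the 606 measured miRNAs in N-Exo (x axis) and H+G-Exo (y axis), both on log axes; each point is 1 miRNA, the solid line marks equal signal and the dashed lines a 2-fold difference. The 162 lower miRNAs (blue) reach the bright end of the scale, where miR-21a-5p stood at 190.4 in N-Exo and 29.7 in H+G-Exo, while miR-210-3p lies near the line of equal signal.

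The hypoxia marker miR-210-3p was close in the compared arrays. miR-210-3p, which hypoxia-inducible factor induces and which restrains mitochondrial respiration, read 7.51 ± 0.339 in N-Exo and 6.17 ± 0.243 in H+G-Exo, beside 13.2 ± 0.443 in H-Exo. Scaled, H+G-Exo was the lowest and H-Exo the highest, whereas the unscaled signals were 3133 in N-Exo, 2894 in H+G-Exo and 3108 in H-Exo. The difference, 1.22-fold, did not reach the rule, and on the log2 scale it was -0.28 scaled and -0.11 unscaled. With the median or quantile scaling it lay at 0.03 and 0.05, on the other side of 0, and with the deposited value table at 0.24. The other arm, miR-210-5p, did not stand well above background on the 3 arrays. The list of hypoxia-responsive miRNAs held 14 measured members, of which 12 fell and 0 rose, with a median log2 difference of -2.67. In this list miR-210-3p and miR-181b-5p did not reach the rule. miR-23b-3p, which acts on blood vessel growth and glutamine metabolism, fell from 6.36 ± 0.185 in N-Exo to 0.505 ± 0.0290 in H+G-Exo, with 1.58 in H-Exo, a 12.6-fold fall. miR-26a-5p, a regulator of cell growth and of muscle and bone differentiation, fell 12.3-fold, from 3.82 ± 0.121 to 0.311 ± 0.0329, with 0.972 in H-Exo. miR-103-3p, linked to Dicer and to insulin sensitivity, read 4.13 ± 0.254 in N-Exo and 0.555 ± 0.0581 in H+G-Exo, beside 2.01 in H-Exo, a 7.45-fold fall. In each of these 3 falls H-Exo lay between the compared arrays.

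The 12 largest falls held members of the miR-15/16, miR-23, miR-26, miR-27, miR-30, miR-99 and miR-199 groups. miR-322-5p, of the miR-15/16 family and the mouse counterpart of human miR-424, gave the largest: it read 4.15 ± 0.154 in N-Exo and 0.318 ± 0.0197 in H+G-Exo, beside 0.835 in H-Exo, 13.0-fold lower. miR-503-5p, transcribed with it and a brake on the cell cycle, fell 11.3-fold, from 1.22 ± 0.0671, with 0.243 in H-Exo, to 0.108 ± 0.0104. miR-99a-5p, a repressor of the growth kinase mTOR, fell 12.6-fold, from 0.995 ± 0.0331, with 0.217 in H-Exo, to 0.0789 ± 0.0115. The 12 largest falls lay between 8.34-fold, for miR-195a-5p, and 13.0-fold. In all 12 the H-Exo signal stood between that of N-Exo and that of H+G-Exo, scaled and unscaled. miR-195a-5p, which arrests the cell cycle, had low signals, 0.413 ± 0.0179 in N-Exo and 0.0495 ± 0.00749 in H+G-Exo, and with the software's total per miRNA in place of the spots its log2 difference was 0.37, in the other direction.

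**Figure D2:**
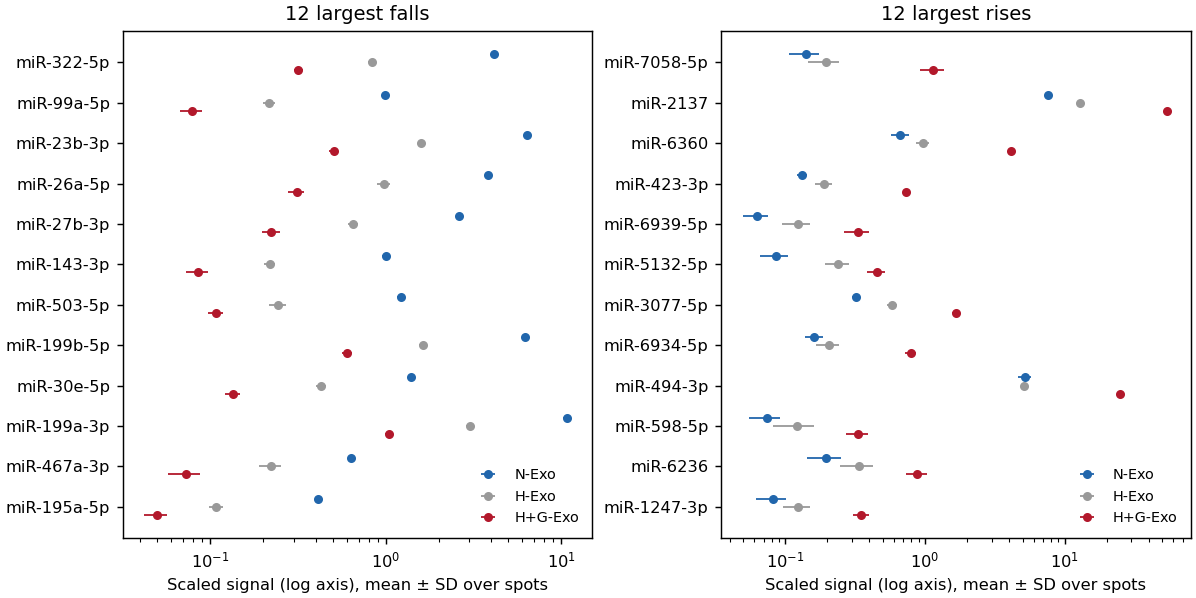
Scaled signal (log axis) of the 12 largest falls and 12 largest rises in N-Exo (blue), H-Exo (grey) and H+G-Exo (red), 1 array each; points are means and bars the SD over spots of 1 probe. In the falls H-Exo lies between the others, as for miR-322-5p at 4.15, 0.835 and 0.318, and in the rises miR-2137 goes from 7.63 in N-Exo to 54.2 in H+G-Exo.

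The let-7 family, which restrains growth genes such as Ras and Myc and marks differentiated cells, fell in all its listed 5p arms. All 9 were measured, share the seed GAGGUAG and fell, by a median of 2.47 on the log2 scale, and the list median lay between -2.47 and -2.16 under the other scalings. let-7f-5p fell 7.07-fold, from 19.7 ± 0.761 in N-Exo, with 8.90 in H-Exo, to 2.79 ± 0.146 in H+G-Exo. let-7a-5p fell 6.57-fold, from 26.5 ± 0.678, with 12.5 in H-Exo, to 4.04 ± 0.214. let-7b-5p fell 4.33-fold, from 63.1 ± 2.31, with 30.7 in H-Exo, to 14.6 ± 0.418. In all 3, H-Exo stood between the compared arrays. The smallest fall of the family was that of let-7g-5p, 3.65-fold, from 7.08 to 1.94. Mature let-7 sequences are nearly identical and can share signal on their probes, so the order within the family is uncertain.

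The miR-15/16 family, which represses cyclins and the survival gene Bcl2, had 6 measured members and all 6 fell, with a median log2 difference of -3.02. Of these, 5 share the seed AGCAGCA. miR-15a-5p fell 7.91-fold, from 4.01 ± 0.118, with 1.69 in H-Exo, to 0.507 ± 0.0195. miR-16-5p, used as a reference in many body fluids, fell 4.17-fold, from 6.63 ± 0.235, with 2.86 in H-Exo, to 1.59 ± 0.111. The seventh member, miR-497a-5p, was detected in N-Exo only, at 0.330 ± 0.0154, and its bound was a fall of at least 8.78-fold. Such a bound divides the signal by the lowest detected signal of the array that did not detect the miRNA, 0.0376 for H+G-Exo and 0.0451 for N-Exo, or by the miRNA's own signal there if that is higher. It holds for the main scaling.

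The miR-23, miR-27 and miR-24 3p arms, which act on vessel growth and on muscle and fat differentiation, fell in 5 of 5 measured cases, with a median of -2.80. The passenger arm miR-23a-5p, outside the list, read 0.617 in N-Exo and 0.340 in H+G-Exo, short of the rule. miR-27b-3p, from the cluster of miR-23b, fell 11.8-fold, from 2.62 ± 0.0802, with 0.650 in H-Exo, to 0.223 ± 0.0255. Its near copy miR-27a-3p fell 6.95-fold, from 5.17 ± 0.164, with 2.27 in H-Exo, to 0.745 ± 0.0355. miR-23a-3p fell 3.61-fold and miR-24-3p 2.14-fold, the latter short of 2-fold without scaling. The copies a and b differ by few bases and can share signal. Among miR-26, miR-103 and miR-107, which act on growth and metabolism, 4 of 4 measured members fell, with a median of -2.80. miR-107-3p fell 6.14-fold, from 1.99 ± 0.101, with 0.935 in H-Exo, to 0.324 ± 0.0134.

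The miR-29 family, which represses collagens and other matrix genes, fell in 3 of 3 cases, with a median of -2.78 and the shared seed AGCACCA. miR-29b-3p fell 6.88-fold, from 6.85 ± 0.449 in N-Exo, with 3.96 in H-Exo, to 0.996 ± 0.0257 in H+G-Exo. miR-29c-3p fell 7.69-fold, from 0.806 ± 0.0339, with 0.313 in H-Exo, to 0.105 ± 0.00554, and miR-29a-3p 4.84-fold. Of the listed miR-30 family, which restrains autophagy and mesenchymal transition genes, 6 of 6 measured members fell, with a median of -2.58. The passenger arm miR-30c-1-3p, outside the list, read 0.156 in N-Exo and 0.250 in H+G-Exo, short of the rule. miR-30e-5p fell 10.3-fold, from 1.39 ± 0.0502, with 0.429 in H-Exo, to 0.135 ± 0.0133. miR-30b-5p fell 6.29-fold in spot signal, from 0.775 to 0.123, and lay at a log2 difference of 0.67, in the other direction, with the software's total per miRNA.

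The listed members of the lin-4 family and the miR-10/99/100 family, which lie beside let-7 genes or in Hox clusters, fell in 2 of 2 and 4 of 4 measured cases, with medians of -2.39 and -2.29. Outside the list, miR-6394 has the lin-4 seed CCCUGAG and rose, with a log2 difference of 1.15. miR-125b-5p, abundant in stromal cells, fell 4.55-fold, from 69.0 ± 1.79, with 34.9 in H-Exo, to 15.2 ± 0.840. miR-100-5p, which shares the seed ACCCGUA with miR-99a-5p, fell 3.77-fold, from 3.33 ± 0.168, with 1.39 in H-Exo, to 0.884 ± 0.0313. The fifth member of the miR-10/99/100 family, miR-10b-5p, was detected in N-Exo only. The miRNAs linked to p53, the stress-response factor, fell in 5 of 5 cases, with a median of -2.27. miR-34b-5p, which p53 induces, fell 4.82-fold, from 0.739 ± 0.0659, with 0.449 in H-Exo, to 0.153 ± 0.0166.

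The list of mesenchymal and contractile miRNAs was read beside the labelled cell type. Its members were chosen with earlier results of these data known, so it is no independent check. Of its 17 members on the array 12 were measured, 12 fell and 0 rose, with a median log2 difference of -2.56, and 11 of the 12 also fell without scaling. The summed scaled signal of the list was 304.7 in N-Exo and 52.8 in H+G-Exo, beside 131.9 in H-Exo. This sum adds probes of unlike brightness. In N-Exo most of it came from miR-21a-5p, at 190.4, and miR-125b-5p, at 69.0. miR-21a-5p, abundant in stromal cells, read 190.4 ± 15.4 in N-Exo and 29.7 ± 0.657 in H+G-Exo, beside 81.0 in H-Exo, a 6.40-fold fall. miR-199a-3p, made from the Dnm3os transcript of mesenchyme, fell 10.3-fold, from 10.7 ± 0.576, with 3.04 in H-Exo, to 1.04 ± 0.0450. miR-143-3p, of smooth muscle and fibroblasts, fell 11.8-fold, from 0.999 ± 0.0532, with 0.218 in H-Exo, to 0.0850 ± 0.0121. miR-199b-5p, closely related to miR-199a-5p, fell 10.4-fold, from 6.25 ± 0.304, with 1.64 in H-Exo, to 0.602 ± 0.0411. Listed markers of the labelled cell type were thus present on both compared arrays, 12 of 17, beside 606 of all 1881 miRNAs, with the lower signal in H+G-Exo. Of the other listed members 2 were detected in N-Exo only and 3 on neither. The list overlaps with others above, and its members can share signal with near-identical copies.

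Most markers of other cell types were not detected, and the part of those that were in the other results was not tested. Of 7 blood cell miRNAs, miR-451a of red cells and miR-223-3p of myeloid cells were measured on both arrays, and the summed signal of the list was 0.287 in N-Exo and 0.180 in H+G-Exo, beside 0.363 in H-Exo. miR-451a fell 3.18-fold, from 0.153 ± 0.0138 to 0.0480 ± 0.0103, and lay at a log2 difference of 3.66, in the other direction, with the software's total per miRNA. miR-223-3p read 0.0784 in N-Exo and 0.0615 in H+G-Exo, short of the rule. miR-486a-5p was detected in H+G-Exo only, and miR-144-3p, miR-142a-3p, miR-142a-5p and miR-150-5p on no array. Neither endothelial marker, miR-126a-3p and miR-126a-5p, was detected, nor was the liver's miR-122-5p. Of 11 epithelial miRNAs 3 were measured, all from the miR-183 cluster. Of these miR-96-5p fell 6.30-fold, from 0.570 to 0.0905, miR-182-5p fell 2.24-fold, from 0.406 to 0.182, and miR-183-5p read 0.304 and 0.222. The summed signal of the list was 1.32 in N-Exo, 0.525 in H+G-Exo and 0.961 in H-Exo, while miR-203-3p, miR-205-5p, miR-375-3p and the listed 3p arms of the miR-200 family were not detected. Outside the list, miR-200a-5p read 0.737 in N-Exo and 0.385 in H+G-Exo, and miR-200b-5p 0.387 and 0.235, both short of the rule. Of 5 neuronal miRNAs none was measured on both arrays, and miR-128-3p was detected in N-Exo only. Muscle and heart miRNAs had 3 measured members, none called, with a median of -0.30 that lay at 0.01 under median scaling, and miR-1a-3p, miR-208a-3p and miR-499-5p were not detected.

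Lists of known functions held the same families and largely fell with them. Cardiac protection or repair had 15 measured members, of which 11 fell and 1, miR-494-3p, rose, with a median of -1.96. Angiogenesis had 17, of which 12 fell and 0 rose, with a median of -1.85. Bone, cartilage and fat differentiation had 11, of which 9 fell and 1, miR-2861, rose, with a median of -2.58. miR-2861, linked to bone formation, read 2.49 in N-Exo and 7.59 in H+G-Exo, beside 4.27 in H-Exo, a 3.05-fold rise. Its cluster neighbour miR-3960 read 20.3 in N-Exo and 38.8 in H+G-Exo, beside 30.0 in H-Exo, a 1.91-fold difference that passed the rule only without scaling. miR-140-5p, the cartilage miRNA, fell 6.46-fold, from 1.31 ± 0.0654, with 0.483 in H-Exo, to 0.203 ± 0.0133.

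Inflammation-linked miRNAs fell in 5 of 6 measured cases, with a median of -1.56. miR-146a-5p, a brake on signals of Toll-like receptors, read 1.10 ± 0.0319 in N-Exo and 0.270 ± 0.0191 in H+G-Exo, beside 0.252 in H-Exo, a 4.10-fold fall, so both hypoxic arrays stood low. miR-155-5p, which promotes inflammation, fell 2.79-fold, from 2.26 ± 0.101, with 1.15 in H-Exo, to 0.808 ± 0.0656. The miR-17 to 92 group, which promotes growth, fell in 8 of 11 cases, with a median of -1.68. miR-19a-3p, a member of the first cluster of the group, fell 5.39-fold, from 1.14 ± 0.0471, with 0.681 in H-Exo, to 0.211 ± 0.0290, while miR-17-5p read 0.271 in N-Exo and 0.260 in H+G-Exo. The families of miR-130 and miR-301, miR-148 and miR-152, and miR-181 fell in 3 of 6 cases, with a median of -1.50. miR-130a-3p, which acts in vessel growth, fell 6.01-fold, from 13.0 ± 1.14, with 5.31 in H-Exo, to 2.17 ± 0.0980. Of their other members 4 were detected in N-Exo only, among them miR-148a-3p and miR-181a-5p.

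**Figure D3:**
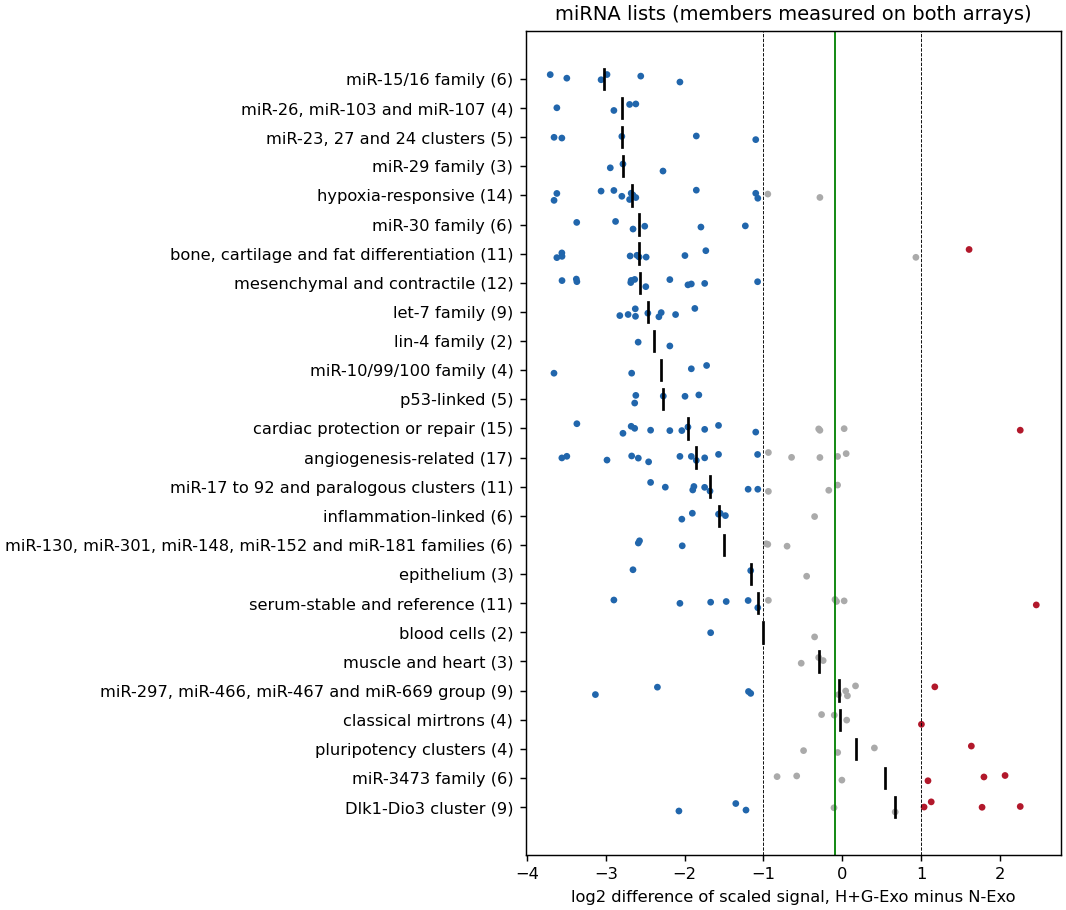
Difference in scaled signal, H+G-Exo minus N-Exo on the log2 scale, of the measured members of each list (number in brackets); blue members fell, red rose, grey did neither, black bars are list medians, the green line is the median of all 606 miRNAs (-0.10) and dashed lines mark 2-fold. Every measured member of the lists of let-7, miR-30, miR-15/16 and miR-29 lies left of the lower dashed line, and the listed Dlk1-Dio3 members have the highest median (0.67).

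Serum-stable and reference miRNAs, which are often used to normalise other miRNAs, did not move together. Of 11 measured members 6 fell, 1 rose and 4 did neither, with a median of -1.07, which lay at 0.0038 with the software's total per miRNA. miR-423-3p rose 5.52-fold, from 0.132 ± 0.0103 in N-Exo, with 0.190 in H-Exo, to 0.727 ± 0.0293 in H+G-Exo. miR-320-3p read 0.874 in N-Exo and 0.889 in H+G-Exo, and miR-484 read 0.0491 and 0.0461, whereas miR-103-3p and miR-16-5p were among the falls given above.

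The largest rises came with miRNAs of which less is known. miR-7058-5p gave the largest, from 0.140 ± 0.0342 in N-Exo, with 0.195 in H-Exo, to 1.15 ± 0.229 in H+G-Exo, or 8.19-fold. miR-2137 rose 7.10-fold, from 7.63 ± 0.0902, with 12.9 in H-Exo, to 54.2 ± 1.92. miR-3077-5p rose 5.21-fold, from 0.321 ± 0.0227, with 0.584 in H-Exo, to 1.67 ± 0.114. H-Exo stood near N-Exo rather than H+G-Exo in each. The other miRNAs of the 12 largest rises were miR-6360, miR-6939-5p, miR-5132-5p, miR-6934-5p, miR-598-5p, miR-6236 and miR-1247-3p, which rose 6.16-fold to 4.31-fold, together with miR-423-3p and miR-494-3p. In 11 of the 12 the scaled H-Exo signal lay between the other arrays, the exception being miR-494-3p, but without scaling this held for 3 of the 12.

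Members of the imprinted Dlk1-Dio3 cluster, a large group of miRNAs active in embryo and brain, split. Of 36 listed members 9 were measured, of which 4 rose and 3 fell, and the median was 0.67. Outside the list, miR-341-3p of the same region rose 2.38-fold and miR-758-5p fell 2.52-fold, while miR-432, miR-770-5p, miR-3070-2-3p, miR-3070-3p and miR-3072-5p were measured and did neither, of which miR-3072-5p passed the rule without scaling. miR-494-3p rose 4.79-fold, from 5.19 ± 0.539 in N-Exo, with 5.12 in H-Exo, to 24.9 ± 0.496 in H+G-Exo, and without scaling N-Exo read 2167 and H-Exo 1203. miR-370-3p rose 3.42-fold, from 0.160 ± 0.0390, with 0.289 in H-Exo, to 0.547 ± 0.0923. miR-541-5p fell 4.20-fold, from 0.337 ± 0.157, with 0.285 in H-Exo, to 0.0802 ± 0.0346. Of the others, 26 were detected on neither array, and miR-666-5p was detected in H+G-Exo but not in N-Exo.

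The miR-3473 family rose in 3 of 6 measured cases and fell in 0, with a median of 0.54. miR-3473b rose 4.19-fold, from 14.4 ± 0.445 in N-Exo, with 8.71 in H-Exo, to 60.5 ± 1.02 in H+G-Exo. miR-3473a rose 3.48-fold, from 1.05 ± 0.0325, with 0.541 in H-Exo, to 3.66 ± 0.150. H-Exo was the lowest array for both. As printed above, these members share a run of 16 bases, so their probes can share signal and the pair is no independent evidence. miR-3473g, which shares no more than 6 bases in a row with miR-3473b, rose 2.13-fold, from 3.05 ± 0.423, with 3.97 in H-Exo, to 6.49 ± 0.721. The other measured members, miR-3473c, miR-3473e and miR-3473f, did neither. Of these, miR-3473e has the seed GGCUGGA of miR-3473b, and it read lower in H+G-Exo, 0.726 in N-Exo and 0.487 in H+G-Exo.

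Other clusters moved little or in both directions. Of 17 listed members of pluripotency clusters, active in embryonic stem cells, 4 were measured, and 1, miR-292a-5p, rose 3.12-fold, from 0.197 ± 0.0289, with 0.296 in H-Exo, to 0.613 ± 0.00638. The median of the 4 was 0.18. Outside the list, their neighbour miR-291b-5p also met the rule, at 2.40-fold, with probes of opposite sign. No 3p arm of miR-291a, miR-292a, miR-293, miR-294 and miR-295 was detected. miR-290a-3p, of the same cluster, was measured at 0.0868 in N-Exo and 0.0834 in H+G-Exo, short of the rule. The group of miR-297, miR-466, miR-467 and miR-669, related rodent hairpins mostly known from an intron of Sfmbt2, had 9 measured members, of which 4 fell and 1 rose, with a median of -0.04 that was 0.12 without scaling. Of the measured, miR-669n, a fall, and miR-467f lie elsewhere, on chromosomes 3 and 11. miR-467a-3p fell 8.77-fold, from 0.636 ± 0.0290, with 0.221 in H-Exo, to 0.0726 ± 0.0148, while miR-466i-5p rose 2.26-fold, from 0.968 ± 0.0335, with 2.37 in H-Exo, to 2.19 ± 0.0750. Of its further members 6 were detected in N-Exo only and 0 in H+G-Exo only. Classical mirtrons, miRNAs spliced from short introns, had 4 measured members and 1 rise, with a median of -0.02 that was 0.15 without scaling. That rise was miR-1224-5p, at 210.3 ± 7.74 in N-Exo and 422.3 ± 10.2 in H+G-Exo, beside 424.4 in H-Exo, 2.01-fold higher, at the edge of the rule.

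Among miRNAs numbered 3000 or above, the largest fall was that of miR-5100, 6.45-fold, from 43.1 ± 1.71 in N-Exo, with 29.9 in H-Exo, to 6.69 ± 0.423 in H+G-Exo. miR-3963 fell 3.75-fold, from 165.5 ± 5.89, with 163.2 in H-Exo, to 44.1 ± 2.81, so H+G-Exo stood low. Of the brighter rises in this class, miR-8110 rose 3.09-fold, from 34.2 ± 0.279 in N-Exo to 105.9 ± 3.12 in H+G-Exo, and H-Exo stood between at 70.6. These numbers record the order of naming, and many late entries come from sequencing with little other study.

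Detection on 1 of the compared arrays was nearly balanced in number. Of all miRNAs 79 were detected in N-Exo only and 72 in H+G-Exo only, and 30 and 27 of them had a bound of at least 2-fold. The divisors given above differ, so bounds on falls and on rises are not comparable in size. Those of N-Exo included 24 numbered 3000 or above and those of H+G-Exo 47. miR-374c-5p, at 0.338 ± 0.0187 in N-Exo, was lower by at least 8.99-fold. miR-148a-3p, a liver and blood miRNA that represses DNA methyltransferases, was at least 6.78-fold lower, with 0.255 ± 0.0215. The others of the largest such falls were miR-497a-5p, miR-467b-5p and miR-466b-3p, at least 8.78-fold, 8.34-fold and 7.91-fold lower. In the other direction miR-125b-1-3p, at 0.405 ± 0.0181 in H+G-Exo, had a bound of at least 8.97-fold, and was not well above background in N-Exo or H-Exo. It is the passenger arm of a hairpin whose other arm is miR-125b-5p. That sequence fell, but it is made at 2 places, so its fall cannot be assigned to this hairpin. miR-7219-5p, miR-294-5p, miR-666-5p and miR-7685-3p were at least 4.36-fold, 3.60-fold, 3.33-fold and 3.31-fold higher.

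Both arms of a hairpin are cut from 1 precursor, so their values were set side by side. For 63 hairpins both arms were measured, 30 of them numbered below 3000. In 7 (miR-28a, miR-30a, miR-31, miR-140, miR-199a, miR-652 and miR-1839) both arms fell, in 0 both rose, in 28 only 1 arm was called and in 26 neither. miR-31-5p fell 3.99-fold, from 3.66 ± 0.239, with 2.02 in H-Exo, to 0.918 ± 0.0860, and miR-31-3p 5.97-fold, from 0.358 ± 0.0167, with 0.146 in H-Exo, to 0.0600 ± 0.00573. In 2 hairpins, named after their values were seen, the arms went opposite ways, and their sequences are shown for that reason, with the seed in capitals.
miR-125a-5p: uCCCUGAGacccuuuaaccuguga
miR-125a-3p: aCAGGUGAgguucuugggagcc
miR-193b-5p: cGGGGUUUugagggcgagauga
miR-193b-3p: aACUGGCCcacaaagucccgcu
miR-125a-5p, of the lin-4 family, fell 6.02-fold, from 4.29 ± 0.194 in N-Exo, with 3.40 in H-Exo, to 0.713 ± 0.0301 in H+G-Exo. miR-125a-3p rose 3.57-fold, from 1.00 ± 0.111, with 1.82 in H-Exo, to 3.58 ± 0.283. The hairpin therefore had its 5p arm highest in N-Exo and its 3p arm highest in H+G-Exo. miR-193b-3p fell 2.61-fold, from 1.32 ± 0.0661, with 0.677 in H-Exo, to 0.504 ± 0.0217. miR-193b-5p, near the lower limit of detection, rose 2.59-fold, from 0.0623 ± 0.0172, with 0.141 in H-Exo, to 0.161 ± 0.0104. miR-423 is a case of 1 called arm: miR-423-5p read 1.07 ± 0.0510 in N-Exo and 1.02 ± 0.0509 in H+G-Exo, beside the 5.52-fold rise of miR-423-3p. In the 48 pairs whose arms differed in GC content, the arm of higher GC had the larger log2 difference in 29.

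**Figure D4:**
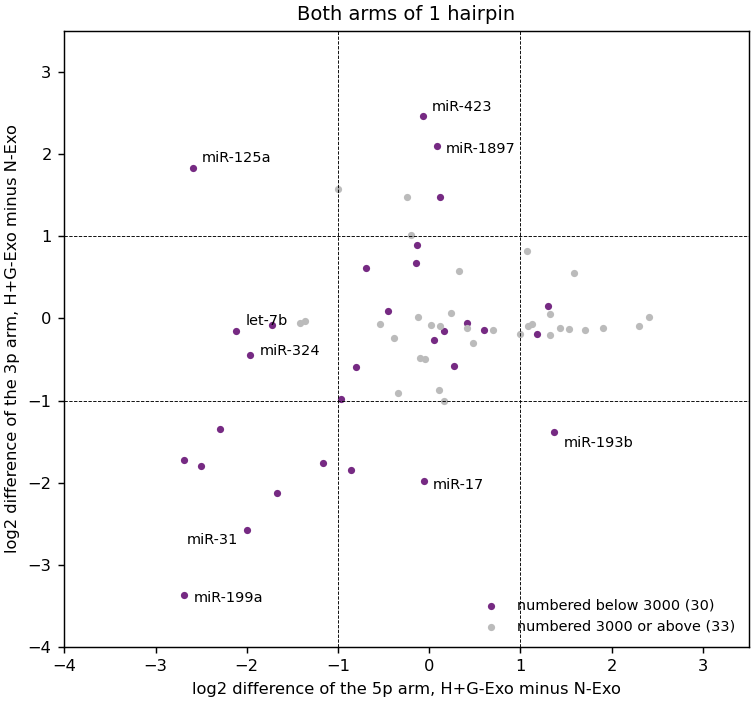
Difference in scaled signal, H+G-Exo minus N-Exo on the log2 scale, of the 5p arm (x axis) and 3p arm (y axis) of the 63 hairpins with both arms measured; purple points are the 30 hairpins numbered below 3000, grey points the others, and dashed lines mark 2-fold. miR-199a and miR-31 lie at the lower left with both arms lower, and miR-125a lies at the upper left with its arms in opposite directions.

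Neighbouring miRNA genes, within 10 kb on 1 strand in the RefSeq table, formed 39 clusters with at least 2 measured genes. In 22 of them at least 1 member fell and none rose, in 5 at least 1 rose and none fell, in 4 both occurred and in 8 none was called. A mature sequence made at several places counts in each of its clusters. The cluster of let-7e, miR-99b and miR-125a on chromosome 17 had 3 falls and 1 rise, the latter of miR-125a-3p. The cluster of miR-193b and miR-365 on chromosome 16 split by arm: miR-365-1-5p rose 3.07-fold, from 0.104 to 0.319, and miR-365-3p fell 2.54-fold, from 0.363 to 0.143, as the arms of miR-193b did. The neighbours miR-341-3p and miR-370-3p formed the 1 cluster in which every measured member rose, by 2.38-fold and 3.42-fold. By seed, AAAGUGC of the miR-17 family had 4 falls among 5 members and GUAAACA of miR-30 3 among 3.

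Falls and rises differed in base composition. Of the 606 measured miRNAs 522 had a RefSeq sequence, with a median GC content of 57.1%. The median was 50% over the 140 that fell and 62.5% over the 105 that rose. Across miRNAs, which are not independent replicates and share probes' chemistry and 2 libraries, Spearman's rho between GC content and the log2 difference was 0.495 over all 522, 0.578 over the 249 numbered below 3000 and 0.195 over the 273 numbered 3000 or above. Below 40% GC, 21 of 30 fell and 1 rose, while at 70% GC or above 5 of 57 fell and 20 rose. let-7f-5p, at 31.8% GC, and miR-2137, at 85.7%, stand for the ends, and miR-494-3p, which rose at 45.5% GC, lies away from them. The part of base composition, including its effect on hybridization, in these differences was not tested.

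Short letter runs have been described as marks for loading into vesicles, among them GGAG and CCCU, which were searched on the mature strand. GGAG stood in 28.5% of the 522 sequences, in 41.0% of those that rose and in 10.7% of those that fell. It is itself rich in G, so it was also read within ranges of GC content. Between 50% and 60% GC the median log2 difference was 0.47 over 56 miRNAs with GGAG and -0.27 over the rest, and between 60% and 70% it was 0.49 over 63 and 0.02 over the rest. Between 40% and 50% it was -0.83 over 7 and -1.67 over the rest, but within each class of number this order was turned. Among miRNAs numbered below 3000 it was -2.46 over 2 and -1.87 over the rest. Among those numbered 3000 or above it was -0.74 over 5 and -0.086 over the rest. At 70% or above the order was also turned, with 0.77 over 22 and 0.83 over the rest. Here it was turned among miRNAs numbered 3000 or above, with 0.47 over 16 and 0.92 over the rest. Among those numbered below 3000 it was kept, with 0.90 over 6 and 0.76 over the rest. The difference was thus not present at every GC content. CCCU stood in 11.3% of all, in 4.76% of those that rose and in 7.14% of those that fell. miR-3473a and miR-3473b hold GGAG in the sequences printed above, as do miR-2137 and miR-125a-3p. These rose, but the letters stood in 15 of the 140 falls as well as in 43 of the 105 rises. let-7e-5p, which fell 6.17-fold, is a fall that holds them. A match is a description of letters and not of binding.

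**Figure D5:**
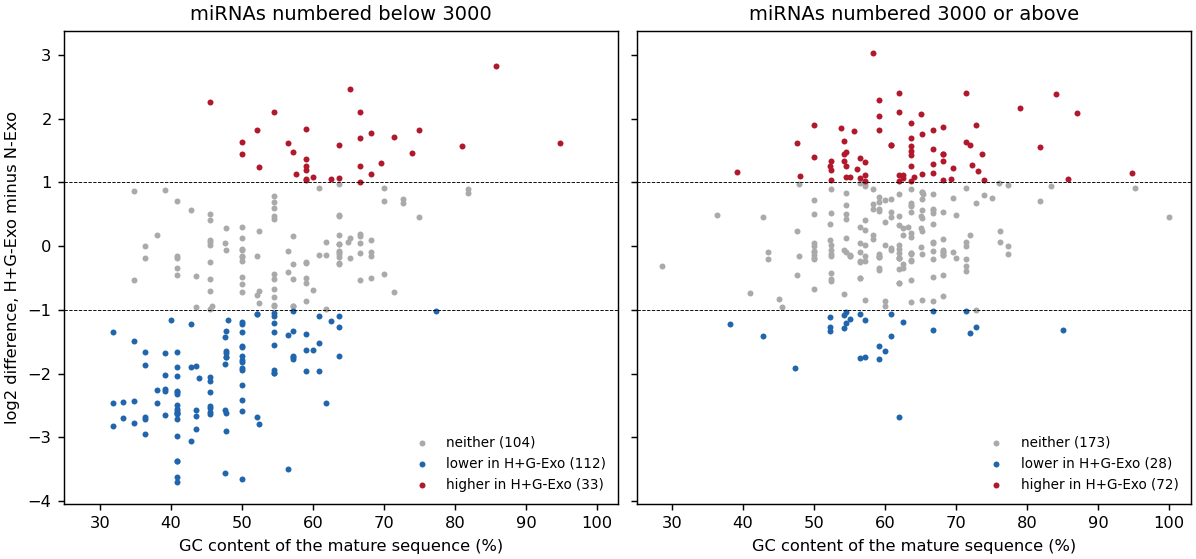
Difference in scaled signal, H+G-Exo minus N-Exo on the log2 scale, against the GC content of the mature sequence for 249 miRNAs numbered below 3000 (left) and 273 numbered 3000 or above (right); blue fell, red rose, grey did neither, dashed lines mark 2-fold. On the left the falls crowd below 50% GC, and on the right the relation is weaker (rho 0.195 against 0.578).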

How the data were processed

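Groups were taken from the treatment in the labels. Per the file headers and the submitters' processing notes, the authors quantified 3 one-colour arrays with Agilent Feature Extraction 10.7.1.1. The deposited files hold background-subtracted spot intensity, unscaled between arrays. Per the labels' protocols the RNA was labelled with Cy3 after a kit for cRNA and one for cDNA, neither usual for miRNA arrays, so the labelling is uncertain. Of 58594 spots per array 56430 held 4415 probes for miRNAs. Control spots and those marked as outliers, 1568 in N-Exo and 1466 in H+G-Exo, beside 1369 in H-Exo, were left out, and 0 were saturated. Each probe mean was scaled by its array's 75th percentile, taken over probes detected on all 3 arrays, and the brightest probe stood for its miRNA. Among 224 called miRNAs with several detected probes, 4 (miR-291b-5p, miR-5122, miR-6351 and miR-681) had probes of opposite sign. The precision is limited by the number of arrays.

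The deposited value table of the authors was read as log2 values: its Pearson correlation with the log2 sum of a miRNA's probe totals was 0.972 in N-Exo and 0.978 in H+G-Exo, beside 0.997 in H-Exo, and without the logarithm it was 0.457, 0.385 and 0.480. The median of its column was -3.32 in N-Exo and -3.30 in H+G-Exo, beside -3.00 in H-Exo. Each of these medians was also the lowest value of its column. The 3 columns had the same mean, 0.288, and the same highest value, 17.21, which quantile normalization would give. How the table was normalized is not otherwise known. Named were both arms of miR-210, the 12 largest called miRNAs each way, the 5 largest bounds each way and up to 4 members of each of 29 lists, the markers of 6 cell types among them. Some further members and arms are named as examples after their values were seen. The members and lists were chosen with earlier results of these data known. On simulated data of 606 miRNAs for this comparison, the rule recovered 46% of 2-fold changes, which lie at its threshold, and 100% of 3-fold, 4-fold and 8-fold changes, with 0 false calls. The simulation held the spot noise of N-Exo and no error between arrays or preparations. It therefore cannot tell how many of the calls made here are false. Python 3.11.15, pandas 2.3.3, numpy 2.4.6 and limma 3.58.1 in R 4.3.3 were used, limma for normexp background correction (offset 50). Quantile normalization was done with numpy and pandas.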

Additional observations from a re-analysis of the deposited data

How the results depend on the processing

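With 1 array a side, no array could be left out. No paired analysis was possible because each group has 1 array. The count of miRNAs higher in H+G-Exo than N-Exo was 118, and it was 60 with normexp background correction, 197 in the deposited value table, 181 at 1.5-fold and 44 at 3-fold. The count of miRNAs lower in H+G-Exo than N-Exo was 162, and 100 at 3-fold, and at the other alternatives both counts stayed within 1.5 times. The cause was not tested. Relative to the main scaling, the median of all miRNAs moved by 0.17 on the log2 scale without scaling, 0.11 with the percentile over all probes, 0.31 with the array median, 0.28 with labelling spike-ins and 0.15 with quantile normalization. With the software's total per miRNA, which differed by over 5% from the sum of that miRNA's probe totals for 160 miRNAs in N-Exo and 153 in H+G-Exo, 17 called miRNAs changed direction. Among named results these were miR-195a-5p at 0.37, miR-30b-5p at 0.67 and miR-451a at 3.66, and the list medians of serum-stable and reference miRNAs at 0.0038 and of blood cell miRNAs at 0.76. With the software's probe totals summed instead, 0 called miRNAs changed direction. That alternative was chosen after seeing the data. Of 1356 values of 91 named miRNAs over the alternatives, 844 moved by less than the spot spread, 509 by more, and 3, all of called miRNAs, changed direction. A further 8 named miRNAs that were not called, miR-210-3p among them, lay on the other side of 0 in 23 values, which are counted among the 844 and the 509.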
